A study of Mus musculus with 12 samples.

Results

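Ly6c-low, CX3CR1-high cells sorted from mouse hearts 30 days after cryoinjury were compared with cells of the same gate from uninjured hearts. The genes compared were the 12879, of 14460 measured, whose mean signal over the 12 libraries of the study was at least 1. The comparison used 6 of the 12 libraries, 3 of day 30 and 3 of uninjured hearts, called day 0. All animals were Cx3cr1 GFP/+ knock-in mice aged 2 to 3 months per the labels, in which GFP takes the place of 1 copy of the receptor gene Cx3cr1, so the controls carry this allele too. Cryoinjury, a freezing lesion of the heart wall, stood in for infarction, and the day 0 animals were not operated on. No sham operation is described and no separate uninjured group is labelled for day 30. The injury, the surgery, the 30 days that passed and any difference in preparation between the groups therefore cannot be told apart. The remaining libraries, 3 of the same gate at day 7 and 3 of Ly6c-high, CX3CR1-low cells at day 3, entered the estimate of the spread and are quoted only beside the values of days 0 and 30.

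Macrophages of the healthy heart are long-lived resident cells that clear debris and carry scavenger receptors such as Lyve1 and Timd4. After an infarct, Ly6C-high monocytes enter first and release cytokines, and Ly6C-low macrophages dominate the later repair. In macrophages, early response genes of the AP-1, EGR and NR4A families are switched on within minutes of a stimulus, and the transcription factor NF-kB drives many cytokine genes together with the genes of its own inhibitors.

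Levels are given as signal, a read count per gene scaled by the authors with a factor for each library. The scaled libraries did not sum alike, with 918940 to 1205934 at day 0 and 823829 to 836670 at day 30. The recovered depth was 6658825 to 10334937 reads in the day 0 libraries and 5828904 to 13199576 in those of day 30, and the floor of detection, 3 reads, equals 0.190 to 0.543 in signal over the 12 libraries (counting error only). The first day 0 library stood apart from the other day 0 libraries: its early response genes summed to 8770 signal against 2990 and 3481, the stress chaperone gene Hspa1a had 3081 against 619 and 607, and its mitochondrially encoded genes summed to 196094 against 425144 and 470693. The day 30 libraries were closely alike, with correlations across genes of 0.990 to 0.993 and a chi-square per gene of 2.21 to 2.91 between pairs, against 20.7 to 78.6 among the day 0 libraries. Counting noise alone would give a chi-square per gene near 1, but repeat preparations of 1 pool of RNA would exceed that too, so these values do not show whether the 3 came from separate animals. They were kept as 3 samples because the labels call them so. The p-values measure only the spread between libraries within groups, estimated over all 12 libraries of the study. Both Xist, a transcript of female cells, and the Y-linked genes Kdm5d and Uty were detected in all 6 libraries. Each library thus held transcripts of both sexes. Xist had a signal of 361, 1200 and 980 at day 0 and 837, 820 and 877 at day 30. Kdm5d had 25.7 to 29.0 at day 0 and 25.1 to 27.1 at day 30. Uty had 19.9 to 23.4 and 24.6 to 28.4, so its groups did not overlap. The Y-linked gene Ddx3y had 37.1, 30.7 and 23.5 at day 0 and 60.6, 58.2 and 63.6 at day 30. Its log2 fold change was 0.997 ± 0.248 (SE, adjusted p = 0.0281). Of 5 sex-linked genes tested, Ddx3y alone passed at adjusted p under 0.05 (20% against 3.45% of all genes). Ddx3y passed in only 1 of the 6 fits that leave out a compared library. The labels do not say whether animals were pooled.

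The gate held macrophages in both groups. Cx3cr1, the receptor gene of the gate, had 156, 157 and 145 signal at day 0 and 132, 126 and 134 at day 30, a log2 fold change of -0.22 ± 0.15 (SE, n = 3 against 3, adjusted p = 0.408). The pan-macrophage genes Emr1 (F4/80), Cd68 and Itgam had mean signals of 638, 392 and 468 at day 0 and of 588, 390 and 508 at day 30, and none of them passed the test. Csf1r, the receptor gene for the growth factor CSF1, had 1849, 1491 and 1455 at day 0 and 1112 to 1200 at day 30, so its day 30 values were below all day 0 values, and it did not pass (-0.46 ± 0.18, adjusted p = 0.146). Ly6c1 and Ly6c2, near-identical genes whose reads may be shared, were low in both groups. Ly6c2 had 1.32, 20.6 and 20.1 at day 0 and 2.40 to 3.23 at day 30, against 620 or more in the Ly6c-high cells of day 3. Ccr2, the receptor of recruited monocytes, had 192, 284 and 329 at day 0 and 418 to 426 at day 30. The Ccr2 groups did not overlap, and its log2 fold change of 0.68 ± 0.23 did not pass (adjusted p = 0.0946).

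At an adjusted p under 0.05, 796 of the 12879 genes differed between day 30 and day 0, which is 6.18%. Of these, 444 (3.45%) were higher and 352 (2.73%) were lower at day 30, and 335 of the 796 changed at least 2-fold. In 5250 genes (40.8%) the 3 day 30 values lay all above or all below the 3 day 0 values, and this held for 794 of the 796. By the naming rule the 4 largest rises were in Chi3l3, Nr4a3, Sfrp2 and Cxcl1, and the 4 largest falls in Myh6, Cd207, Ttn and Gzma. The median log2 fold change over all genes was -0.005. Without 1 of the 6 compared libraries 235 to 955 genes passed, the fewest without the second day 30 library and the most without the first of day 0, and without the second day 7 library 1990 passed. If the 3 day 30 libraries are averaged and counted as 1 sample, 13 genes pass, among them Nr4a3, Ptgs2, Ifi44, Slfn4, Sfrp2, Bhlhe40 and Cd207.

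**Figure D1:**
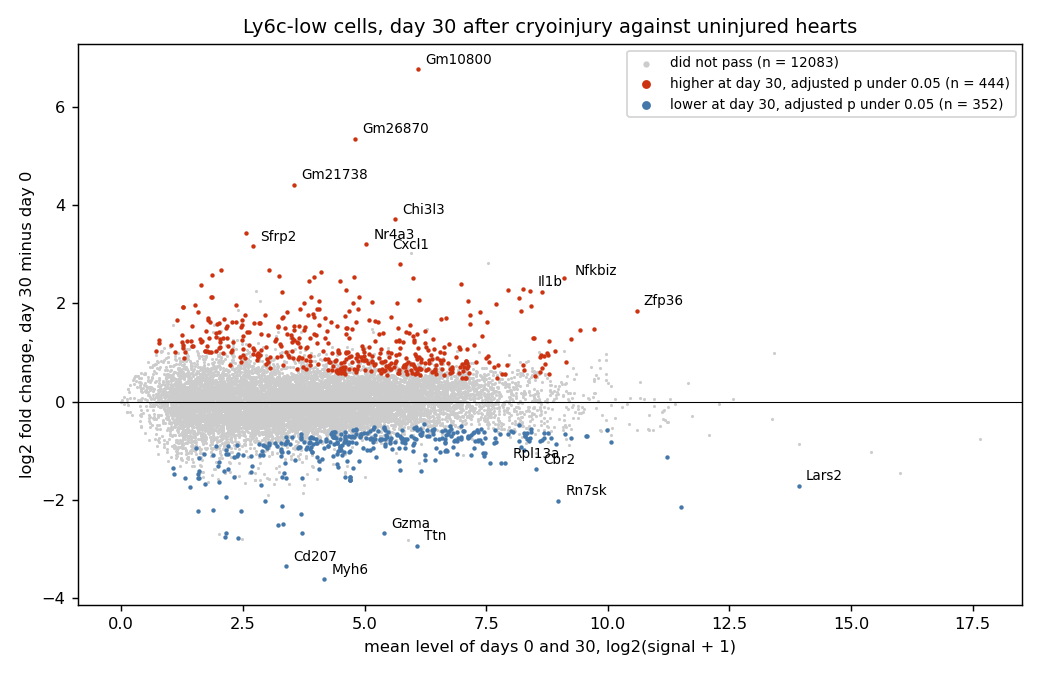
Log2 fold change, day 30 minus day 0, of each of the 12879 genes (y axis) against its mean level over both groups, log2(signal + 1) (x axis). Red points are the 444 genes higher and blue points the 352 genes lower at adjusted p under 0.05, grey points the rest, and the highest red point is the predicted gene Gm10800 at 6.76.

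Resident macrophage genes were in part lower at day 30. Of 27 genes of resident cardiac macrophages tested, 2 passed, both lower (7.41% against 2.73% of all genes), and the median log2 fold change was -0.46 against -0.005. In 19 of the 27 the day 30 values lay below all day 0 values, against 20.3% of all genes tested. The number passing as lower moved with the setting. With 5 in place of 1 added to the signal before log2, 8 of the 27 were lower, where 383 of all 12879 genes were. With 0.1 added it was 2, and with any 1 of the 6 compared libraries left out it was 1. Cbr2, a carbonyl reductase gene of resident cardiac macrophages (chromosome 11, 120729489 to 120732114, GRCm38), had 542, 514 and 536 at day 0 and 192, 214 and 207 at day 30. Its groups lay far apart, with a log2 fold change of -1.37 ± 0.26 (adjusted p = 0.00743). F13a1, which encodes coagulation factor XIII subunit A, had 1471, 1420 and 1239 at day 0 and 764, 777 and 792 at day 30 (-0.82 ± 0.22, adjusted p = 0.0429). The F13a1 call was lost with any 1 of the 6 libraries left out (adjusted p = 0.0802 to 0.14).

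Lyve1, the hyaluronan receptor of resident macrophages, had 576, 458 and 462 at day 0 and 238, 240 and 239 at day 30, and 19.4 to 62.7 at day 7. Its day 30 values were below all day 0 values, yet the log2 fold change of -1.05 ± 0.36 did not pass (adjusted p = 0.096). Timd4, a receptor for phosphatidylserine on dying cells, had 97.4, 85.2 and 92.4 at day 0 and 55.2 to 57.2 at day 30. The haptoglobin-hemoglobin receptor gene Cd163 had 343 to 510 and 220 to 231, and the folate receptor gene Folr2 had 154 to 200 and 78.7 to 85.4. For all 4 of these genes the groups did not overlap and the test was not passed, with adjusted p of 0.064 for Folr2, 0.159 for Cd163 and 0.336 for Timd4. The SE of the fit draws on all 12 libraries, so the spread of the groups not compared enters it. Timd4, for one, had 5.78 to 21.2 at day 7 and 0.265 to 3.66 at day 3. The mannose receptor gene Mrc1 overlapped between the groups, with 1666 to 2312 at day 0 and 1998 to 2019 at day 30. Of 17 macrophage identity and gate genes, 3 were lower (17.6% against 2.73% of all genes) and none was higher: Tyrobp, the adaptor of activating receptors (-0.75 ± 0.14), Aif1, which encodes the actin-binding protein IBA1 (-0.59 ± 0.15), and the Fc receptor gene Fcgr3 (-0.55 ± 0.14). The calls of Aif1 and Fcgr3 were lost with any 1 library left out, the largest adjusted p being 0.144 and 0.136 without the second day 30 library. No gene of MHC class II presentation passed, of 16 tested, and their median was 0.06. The invariant chain gene Cd74 had 5650 to 6602 at day 0 and 5984 to 6634 at day 30.

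Early response genes were higher at day 30. Of 28 early response and AP-1 genes tested, 14 rose (50% against 3.45% of all genes) and none fell, with a median log2 fold change of 1.10. The NR4A nuclear receptor genes led the list. Nr4a3 (chromosome 4, 48045153 to 48086447) had 10.2, 3.56 and 3.98 at day 0 and 57.8, 55.5 and 59.0 at day 30. All day 30 values were more than 5 times the highest day 0 value, and the log2 fold change was 3.21 ± 0.32 (adjusted p = 6.11e-05). Nr4a2 had 7.00, 1.78 and 3.62 at day 0 and 25.8, 32.1 and 26.9 at day 30 (2.64 ± 0.32), and Nr4a1 had 105, 25.1 and 19.6 against 206, 200 and 196 (2.39 ± 0.43).

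The first day 0 library lay between the other day 0 libraries and day 30 for many of these genes. Atf3, a stress-induced transcription factor gene, had 293, 55.1 and 65.2 at day 0 and 433, 458 and 436 at day 30 (2.11 ± 0.42, adjusted p = 0.00884). Zfp36, whose product tristetraprolin speeds the decay of cytokine mRNAs, had 1756, 342 and 402 at day 0 and 2317, 2208 and 2225 at day 30 (1.85 ± 0.43, adjusted p = 0.0186). In both genes the first day 0 library held most of the spread of its group. Socs3, the feedback inhibitor of cytokine receptor signals, rose by 2.00 ± 0.28 and Rgs1, a regulator of G protein signals, by 1.84 ± 0.33. The AP-1 subunit genes Fosb, Fosl2 and Fos rose by 2.00, 1.61 and 1.46, and the others that rose were Maff (1.73), Gadd45b (1.49), Egr2 (1.40) and the phosphatase gene Dusp2 (1.17). Jun, Junb, Egr1 and Dusp1 did not pass and overlapped between the groups. Egr1, for one, had 710, 203 and 269 at day 0 and 708, 713 and 666 at day 30 (1.04 ± 0.31, adjusted p = 0.0621). Without the first day 0 library 24 of the 28 passed, and with any 1 of the 5 other compared libraries left out 7 or 8 of the early response and AP-1 genes did. The NR4A genes, Socs3, Rgs1, Fosl2 and Dusp2 passed in each of these fits. Zfp36, Fos, Fosb, Egr2, Maff and Gadd45b passed only in the fit without that first library (without the second day 0 library, adjusted p = 0.101 for Zfp36 and 0.0791 for Fos), and Atf3 lost the call only without the second day 0 library (adjusted p = 0.0538).

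**Figure D2:**
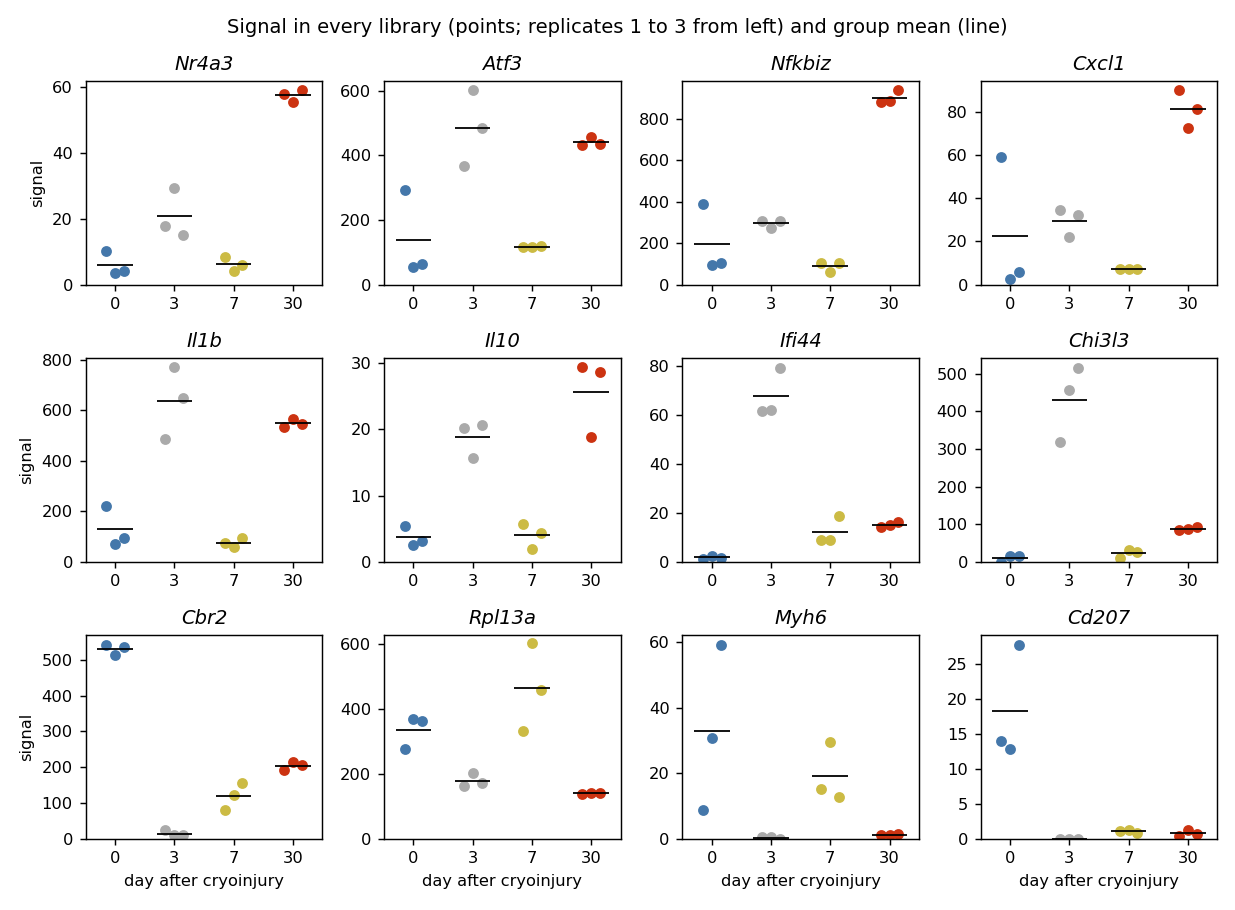
Signal (y axis) of 12 genes in every library, by day after cryoinjury (x axis). Points are the 3 libraries of a group in replicate order, lines are group means, and day 3 is another sorting gate. For Nfkbiz, Il1b and Il10 the day 30 libraries lie above all day 0 and day 7 libraries, and for Atf3 and Cxcl1 the first day 0 library lies above the other day 0 libraries.

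Inflammatory cytokines and chemokines rose together. Of 25 tested, 16 rose (64% against 3.45% of all genes), 2 fell, and the median log2 fold change was 1.34. Il1b, the gene of the inflammasome-processed cytokine interleukin 1 beta (chromosome 2, 129364570 to 129371139), had 220, 71.4 and 94.7 at day 0 and 532, 566 and 546 at day 30. Every day 30 value was over 2 times the highest day 0 value, and the log2 fold change was 2.25 ± 0.31 (adjusted p = 0.000738). At day 7 Il1b had 57.9 to 94.8, and in the Ly6c-high cells of day 3 it had 487 to 771. Ptgs2, the inducible cyclooxygenase of prostaglandin synthesis, had 24.8, 11.1 and 20.3 at day 0 and 107, 107 and 108 at day 30 (2.52 ± 0.24, adjusted p = 4e-05). Il10, the gene of the anti-inflammatory cytokine interleukin 10, had 5.41, 2.52 and 3.08 at day 0 and 29.4, 18.8 and 28.6 at day 30 (2.53 ± 0.31, adjusted p = 0.00029). Il1rn, the interleukin 1 receptor antagonist gene, rose by 1.06 ± 0.23.

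The monocyte-attracting chemokine genes Ccl7 (2.04), Ccl8 (1.73), Ccl2 (1.34) and Ccl12 (1.11) rose, as did Ccl3 (1.94) and Ccl4 (1.76), which attract lymphocytes and monocytes. Ccl2 had 126, 76.3 and 88.4 at day 0, 41.6 to 55.4 at day 7 and 239 to 247 at day 30. Among the neutrophil-attracting chemokines, Cxcl1 had 59.1, 2.83 and 5.98 at day 0 and 90.1, 72.5 and 81.3 at day 30 (2.81 ± 0.64, adjusted p = 0.0181), and Cxcl2 had 539, 45.4 and 76.8 against 590, 570 and 586 (2.22 ± 0.58, adjusted p = 0.0336). Both groups of values were apart, with the first day 0 library close below day 30, and both calls held only without that library (without the second day 0 library, adjusted p = 0.148 for Cxcl2, and without the third, 0.0886 for Cxcl1). Tnf (0.93), the cytokine genes Osm (1.84) and Tnfsf9 (2.04) and the inflammasome sensor gene Nlrp3 (1.24) also rose. Tnf passed in only 1 of the 6 fits that leave out a library (without the second day 0 library, adjusted p = 0.164). Ccl9 fell by 0.87 and Ccl5, a chemokine also made by T and NK cells, by 1.54. Ccl5 had 10.7, 60.2 and 39.8 at day 0 and 7.92 to 10.9 at day 30, so its groups overlapped, and it passed in only 1 fit of the 6 (adjusted p up to 0.173). Without 1 of the 6 libraries, 10 to 17 of the inflammatory cytokines and chemokines rose, the fewest without the second day 0 library. Ccl12 lost the call only without that library (adjusted p = 0.0517). Ccl8 and Il1rn each passed in only 2 of the 6 fits (without that library, adjusted p = 0.0748 and 0.0779).

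Some genes of the NF-kB pathway were higher. Of 18 subunit, kinase and inhibitor genes tested, 6 rose (33.3% against 3.45%), none fell, and the median was 0.67. The 4 largest rises were in genes of inhibitors and modulators. Nfkbiz, the nuclear regulator IkB zeta (chromosome 16, 55811375 to 55838899), had 389, 96.9 and 102 at day 0 and 879, 885 and 937 at day 30. The day 30 values were at least 2 times the first day 0 library and about 9 times the others, with a log2 fold change of 2.51 ± 0.38 (adjusted p = 0.00141). Tnfaip3, the ubiquitin-editing inhibitor A20, had 302, 47.9 and 62.5 at day 0 and 477, 469 and 481 at day 30 (2.28 ± 0.45, adjusted p = 0.00871, and 0.0517 without the second day 0 library). Nfkbid (2.02 ± 0.38), Tnip3 (1.88 ± 0.22) and Nfkbie (0.84 ± 0.22), 3 further inhibitor genes, also rose, the last in only 1 of the 6 fits without a library (adjusted p = 0.141 without the first day 30 library). Of the subunits, Rel rose from 112, 53.8 and 56.1 to 207, 210 and 215 (1.58 ± 0.26, adjusted p = 0.00238). Rela and Nfkb1 did not pass: Rela had 28.0 to 36.6 at day 0 and 30.3 to 32.5 at day 30. Nfkbia, the classical inhibitor gene, had 129, 41.5 and 49.1 against 118 to 121 and did not pass (adjusted p = 0.0801). Of the NF-kB subunits and inhibitors, 4 to 8 rose without 1 of the 6 libraries, the fewest without the second day 0 library.

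The promoters of 4 of these genes are printed because they hold the NF-kB consensus that the members of the 3 lists above were searched for. The windows run from 250 bases before to 50 after the start of transcription on the strand of the gene, from RefSeq (GRCm38.p6), with matches of the consensus on either strand in capitals: chr5:90890995-90891294 (plus strand) for Cxcl1, chr5:90903649-90903948 (plus) for Cxcl2, chr10:19015361-19015660 (minus) for Tnfaip3 and chr11:23770920-23771219 (minus) for Rel.
Cxcl1: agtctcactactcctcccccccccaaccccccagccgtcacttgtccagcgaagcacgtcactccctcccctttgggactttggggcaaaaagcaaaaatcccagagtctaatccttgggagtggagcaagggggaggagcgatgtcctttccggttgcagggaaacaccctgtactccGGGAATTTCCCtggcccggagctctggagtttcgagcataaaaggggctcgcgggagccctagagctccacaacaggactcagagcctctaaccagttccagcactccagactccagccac
Cxcl2: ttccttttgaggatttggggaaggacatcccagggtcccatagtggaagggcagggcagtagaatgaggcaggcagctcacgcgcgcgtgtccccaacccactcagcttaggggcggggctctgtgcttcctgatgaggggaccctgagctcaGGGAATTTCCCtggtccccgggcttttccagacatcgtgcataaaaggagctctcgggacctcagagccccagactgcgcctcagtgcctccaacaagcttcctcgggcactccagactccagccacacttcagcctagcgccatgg
Tnfaip3: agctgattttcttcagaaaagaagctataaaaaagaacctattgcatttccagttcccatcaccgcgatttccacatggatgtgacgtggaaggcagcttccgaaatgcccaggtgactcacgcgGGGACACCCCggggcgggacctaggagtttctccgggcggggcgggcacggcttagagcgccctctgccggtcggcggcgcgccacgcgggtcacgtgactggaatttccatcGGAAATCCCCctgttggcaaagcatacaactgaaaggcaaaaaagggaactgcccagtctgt
Rel: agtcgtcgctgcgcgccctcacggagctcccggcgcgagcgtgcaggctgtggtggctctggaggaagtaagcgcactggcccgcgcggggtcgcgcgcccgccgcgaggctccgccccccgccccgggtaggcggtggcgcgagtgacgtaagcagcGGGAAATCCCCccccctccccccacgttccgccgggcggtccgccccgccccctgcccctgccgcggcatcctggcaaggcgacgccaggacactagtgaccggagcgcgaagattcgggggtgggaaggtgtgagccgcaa
Cxcl1 and Cxcl2 hold the same run of 11 bases in capitals, in which matches on both strands overlap. Of the 36 genes of the 3 lists that rose, 28 had a window in the table, and 13 of their 40 windows (32.5%) held the consensus. It stood in 11 of 32 windows (34.4%) of the members that did not rise and in 4.94% of the 12280 windows of all genes tested. These 2 shares of windows were close. Counted by gene, 46.4% of the genes that rose and 33.3% of the others had a window with the consensus. The AP-1 motif TGANTCA, searched on both strands, stood in 7.5% of the windows of members that rose, in 8 of 32 windows (25%) of the members that did not rise and in 5.22% of those of all genes tested. A match of letters is a description and not a site of binding.

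Interferon-stimulated genes were higher as a smaller group. Of 34 tested, 10 rose (29.4% against 3.45%) and none fell, with a median of 0.31, and in 22 of the 34 the day 30 values lay above all day 0 values, against 20.5% of all genes tested. Ifi44 (chromosome 3, 151730922 to 151749960) had 1.19, 2.52 and 1.63 at day 0 and 14.2, 15.1 and 16.1 at day 30, a log2 fold change of 2.56 ± 0.26 (adjusted p = 6.82e-05). The chemokine gene Cxcl10 had 42.0, 20.2 and 18.8 at day 0 and 103, 119 and 108 at day 30 (2.07 ± 0.30). Ifit2, an inhibitor of translation of viral RNA, had 15.4 to 22.9 and 53.9 to 61.1 (1.61 ± 0.25), and the antiviral enzyme genes Rsad2 and Oas3 rose by 1.23 and 0.99. These were small beside day 3, where Ifit2 had 760 to 1421 in Ly6c-high cells. At day 7 Ifit2 had 47.7 to 95.4. The ubiquitin-like modifier gene Isg15 did not pass, with 6.07 to 8.60 at day 0 and 8.62 to 10.3 at day 30. Slfn4, a Schlafen gene of myeloid cells outside the list, had 1.85, 5.66 and 3.62 at day 0 and 24, 23.3 and 22.5 at day 30 (2.45 ± 0.24, adjusted p = 4e-05). Of the interferon-stimulated genes, 5 to 9 rose without 1 of the 6 libraries, with 5 in 4 of these fits, and Ifi44, Cxcl10, Ifit2, Rsad2 and Oas3 passed in all 6 of these fits.

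**Figure D3:**
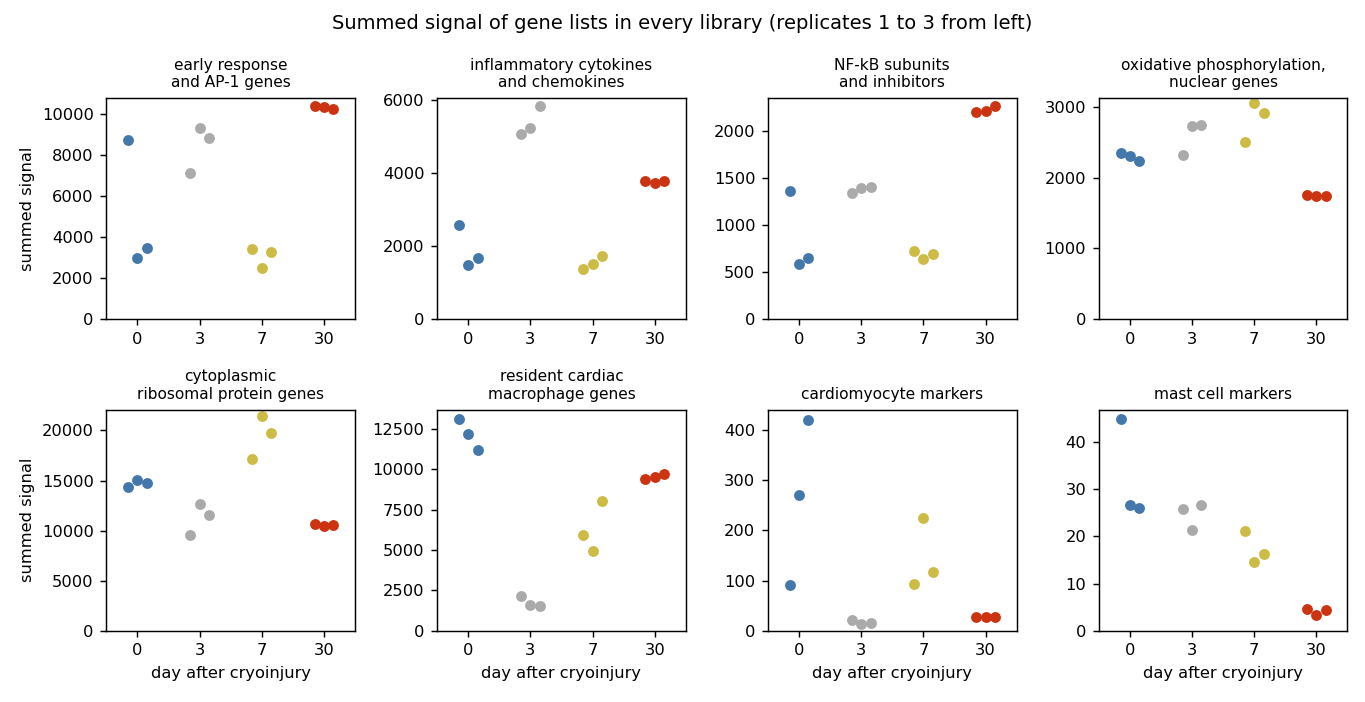
Signal summed over 8 gene lists (y axis) in every library, by day after cryoinjury (x axis). Points are the 3 libraries of a group in replicate order. Early response genes sum to 10264 to 10409 at day 30, with the first day 0 library at 8770 and the others at 2990 and 3481, and cardiomyocyte markers sum to 27.8 to 28.4 at day 30.

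Single genes of monocytes, of wound repair and of lipid-laden macrophages were higher, while most members of their lists did not pass. Of 22 Ly6C-high monocyte genes 4 rose (18.2% against 3.45% of all genes) and none fell (5 fell without the first day 0 library). The median log2 fold change of the list was -0.18, against -0.005 over all genes. The list summed to 499 to 1015 signal at day 0, 1077 to 1095 at day 30 and 8863 or more at day 3. Chi3l3, a chitinase-like secreted protein gene (chromosome 3, 106147554 to 106167564) with near-identical copies, had 0.396, 13.8 and 13.9 at day 0 and 83.8, 86.5 and 93.4 at day 30. It was the largest rise by the naming rule, at 3.71 ± 0.66 (adjusted p = 0.00472). Clec4e, the receptor Mincle for mycobacterial and damage-borne ligands, rose by 2.14 ± 0.30, Thbs1, which encodes the matrix glycoprotein thrombospondin 1, by 1.62 ± 0.25, and Ms4a4c, a membrane protein gene, by 0.83.

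Of 25 genes of lipid handling and cholesterol efflux 3 rose, and of 25 genes of matrix remodelling and wound repair 5 did (12% and 20% against 3.45% of all genes), none of either list falling: Gpnmb, Spp1 and the cholesterol hydroxylase gene Ch25h (0.88) in the first, and Mmp14, Thbs1, Spp1, Plaur and the metalloprotease gene Adam8 in the second. Without the second day 30 library 1 gene of lipid handling and 3 of matrix remodelling rose, and 3 of the latter without the second of day 0. Gpnmb, a glycoprotein gene of lipid-laden macrophages, had 3.56, 13.2 and 17.6 at day 0, 800 to 1300 at day 7 and 46.9, 42.7 and 47.5 at day 30. Spp1, the osteopontin gene, had 8.05, 16.2 and 25.2 at day 0, 404 to 475 at day 7 and 46.8, 52.3 and 50.5 at day 30. Both genes thus stood above day 0 and far below day 7, with log2 fold changes against day 0 of 2.13 ± 0.45 for Gpnmb (adjusted p = 0.0108) and 1.67 ± 0.34 for Spp1 (adjusted p = 0.01). The collagenase gene Mmp14 rose by 1.54 ± 0.28 and the urokinase receptor gene Plaur by 1.37 ± 0.28. Of 22 genes of the list growth factors and angiogenesis 3 rose (13.6% against 3.45%, and 1 without the second day 0 or the first or second day 30 library), namely Gdf15 (2.23 ± 0.44), Vegfa (1.61 ± 0.35), which had 0.396 to 3.56 at day 0 and 5.96 to 6.94 at day 30, and Gdf3 (1.05 ± 0.25). Igf1, a growth factor gene, had 294 to 324 at day 0 and 451 to 475 at day 30 and did not pass (0.57, adjusted p = 0.412). Of these, Gdf3, Ms4a4c and Ch25h passed in only 1 of the 6 fits that leave out a library (adjusted p up to 0.139, for Ch25h). Plaur and Vegfa passed in 4 and Spp1 and Gdf15 in 5, while Chi3l3, Clec4e, Thbs1, Gpnmb and Mmp14 passed in all 6. None of 32 cell cycle genes passed, and their median was 0.004.

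**Figure D4:**
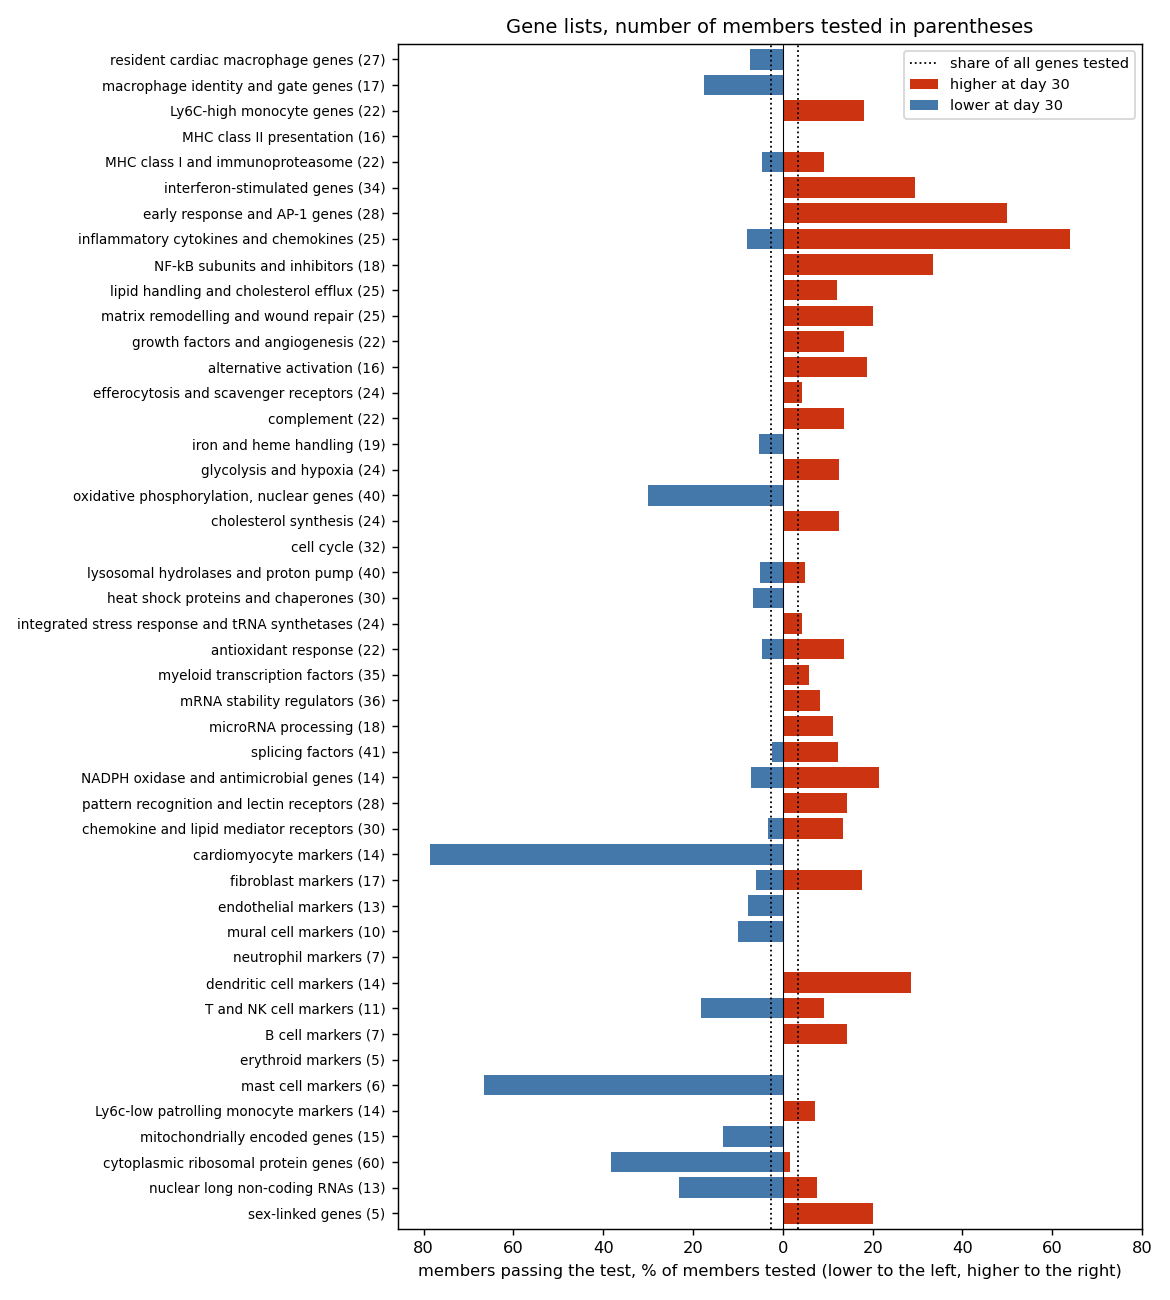
Share of the tested members of each of 46 gene lists that passed (x axis, %), higher at day 30 to the right in red and lower to the left in blue, with the number tested in parentheses. Dotted lines mark the 3.45% and 2.73% of all genes. Inflammatory cytokines reach 64% higher, and cardiomyocyte markers 78.6% and cytoplasmic ribosomal protein genes 38.3% lower.

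Genes of mitochondrial respiration and of the ribosome were lower. Of 40 nuclear genes of oxidative phosphorylation, 12 fell (30% against 2.73% of all genes), none rose, and the median was -0.48. The list summed to 2240 to 2351 signal at day 0 and 1737 to 1756 at day 30, and to 2503 to 3061 at day 7. Cox6a1, a subunit of cytochrome c oxidase, had 112, 120 and 113 at day 0 and 58.4, 62.0 and 56.9 at day 30 (-0.95 ± 0.13, adjusted p = 0.000859). Ndufa2, a subunit of complex I, fell by 1.09, Cox4i1 by 1.01 and Uqcrq of complex III by 0.93. Of these, Cox4i1 passed in 4 and Uqcrq in 5 of the 6 fits that leave out a library (adjusted p up to 0.0583 and 0.051). Without 1 of the 6 compared libraries 4 to 12 members fell, with 4 without the second day 0 or the second day 30 library.

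Of 60 cytoplasmic ribosomal protein genes, 23 fell (38.3% against 2.73%) and Rpl24 rose, and the median was -0.54. Many of these genes have near-identical processed pseudogenes, so reads may have been split between copies. Rpl13a, of the large subunit, had 276, 369 and 361 at day 0 and 139, 140 and 140 at day 30, a log2 fold change of -1.25 ± 0.19 (adjusted p = 0.0016). Rps14 had 238, 274 and 293 against 116, 113 and 109 (-1.24 ± 0.21), and Rps21 had 193 to 207 against 86.6 to 100 (-1.08 ± 0.12). Every day 30 value of these 3 genes was under every day 0 value, and all 3 passed without any 1 library. Rpl24 rose from 31.7, 14.6 and 18.3 to 38.7, 38.0 and 42.9. It passed in only 1 of the 6 fits that leave out a library (adjusted p = 0.112 without the second day 0 library). Without 1 of the 6 libraries 7 to 19 of the cytoplasmic ribosomal protein genes fell, 19 of them without the first day 0 library and 7 to 10 otherwise. Without the second day 7 library 37 fell, in a fit where 908 of all 12879 genes did.

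Fold change moved with transcript length and base composition over all genes. The median log2 fold change was -0.23 in the sixth of genes with the shortest transcripts, up to 1655 bases, and 0.17 in the longest sixth. It was 0.23 in the sixth with the lowest GC content and -0.22 in the highest. The cytoplasmic ribosomal protein genes and those of oxidative phosphorylation are short, with a median length of 1124 and 1386.5 bases against 3294.5 over the genes tested. With the trends on length and GC removed from each library, 485 of 12714 genes rose and 375 fell, and the median over all genes was -0.03. In that fit 12 of the cytoplasmic ribosomal protein genes fell at a median of -0.31. Of the genes of the list "oxidative phosphorylation, nuclear genes", 13 fell at a median of -0.31. Of the early response and AP-1 genes 18 rose, of the inflammatory cytokines and chemokines 15.

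**Figure D5:**
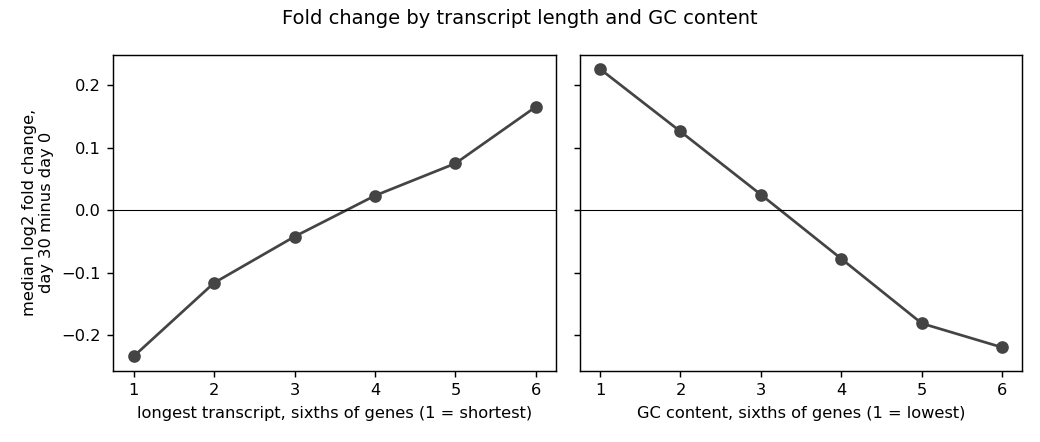
Median log2 fold change, day 30 minus day 0 (y axis), in sixths of the genes by longest transcript (left x axis) and by GC content (right x axis). Points are medians of 2119 genes each, rising from -0.23 to 0.17 with length and falling from 0.23 to -0.22 with GC content.

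Among non-coding and mitochondrial transcripts, Rn7sk, the small nuclear RNA that restrains transcription elongation (chromosome 9, 78175303 to 78175633), had 526, 1020 and 908 at day 0 and 206, 172 and 206 at day 30 (-2.02 ± 0.25, adjusted p = 0.000388). The RNA components of RNase MRP and RNase P, Rmrp and Rpph1, fell by 1.56 and 1.35, and the Cajal body RNA Scarna2 by 1.70. Rmrp passed in 4 and Rpph1 in only 1 of the 6 fits that leave out a library (adjusted p up to 0.0552 and 0.113). Of 13 nuclear non-coding RNAs tested 3 fell (23.1% against 2.73%), Rn7sk, Rmrp and Rpph1, and Snhg1 rose (7.69% against 3.45%). Their median was 0.42, and they summed to 8151 to 9805 at day 0 and 14840 to 16408 at day 30. Snhg1 rose by 0.83 ± 0.20 and passed in 0 of the 6 fits. Of 15 mitochondrially encoded genes 2 fell (13.3% against 2.73% of all genes), mt-Co3 by 1.12 and mt-Nd3 by 1.05. The list summed to 196094 in the first day 0 library, to 192356 to 200750 at day 30 and to 425144 and 470693 in the other day 0 libraries. Without that first library 11 of the 15 mitochondrially encoded genes fell, and without any 1 of the 5 others none did (adjusted p up to 0.153 for mt-Co3 and 0.131 for mt-Nd3). The signal assigned to Lars2, a mitochondrial leucyl-tRNA synthetase gene, fell from 22409, 16572 and 33136 to 8072, 6434 and 6732 (-1.71 ± 0.40, adjusted p = 0.0199). It passed in only 2 of the 6 fits that leave out a library (adjusted p up to 0.102). Whether all these reads came from the mRNA of the synthetase was not tested. Together with Gm26924 and both mitochondrial rRNAs, mt-Rnr1 and mt-Rnr2, Lars2 took 30.4% to 49.3% of the reads at day 0 and 25.5% to 25.9% at day 30.

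Transcripts of heart muscle and of mast cells were lower at day 30, while those of dendritic cells were in part higher. In sorted bulk samples, fewer cells of a type and less RNA per cell cannot be told apart. Of 14 cardiomyocyte markers tested, 11 fell (78.6% against 2.73%) and none rose, with a median of -1.93. The 17 markers in the table summed to 91.7, 270 and 420.2 at day 0 and 27.8 to 28.4 at day 30, and to 93.9 to 225 at day 7. Myh6, the cardiac myosin heavy chain gene (chromosome 14, 54941921 to 54966927), had 8.84, 30.9 and 59.2 at day 0 and 1.01, 1.13 and 1.39 at day 30 (-3.62 ± 0.49, adjusted p = 0.000627). The titin gene Ttn had 20.7, 121 and 228 against 9.36, 11.3 and 9.76 (-2.93 ± 0.63). The first day 0 library was the nearest to day 30 in both genes. Ttn passed in only 1 of the 6 fits that leave out a library, with an adjusted p up to 0.07. The troponin T gene Tnnt2 fell by 2.67, the myosin light chain gene Myl2 by 2.49 and the cardiac actin gene Actc1 by 2.12. Of the cardiomyocyte markers, 7 to 13 fell without 1 of the 6 libraries, the most without the first day 0 library and 7 without the second of day 0 or of day 30.

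Mast cell proteases were near the floor at day 30. Of 6 mast cell markers tested 4 fell (66.7% against 2.73%), and the 8 in the table summed to 25.9 to 44.7 at day 0 and 3.39 to 4.68 at day 30. Cpa3, the mast cell carboxypeptidase gene, had 7.39, 5.66 and 6.88 at day 0 and 0.156, 0.141 and 0.0634 at day 30. The chymase gene Cma1 had 5.45 to 12.5 against at most 0.468, and Mcpt4 had 3.98 to 11.3 against at most 0.141. The tryptase gene Tpsb2, with 1.81 to 5.41 at day 0, and the IgE receptor gene Fcer1a were listed at 0 in all 3 day 30 libraries. The growth factor receptor gene Kit, also used as a mast cell marker, overlapped between the groups. All 4 calls held without any 1 library.

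Of 11 T and NK cell markers 2 fell (18.2% against 2.73%) and 1 rose (9.09% against 3.45%), and the 15 in the table summed to 47.0, 226 and 169 at day 0 and 43.0 to 45.7 at day 30. Gzma, the granzyme A gene, had 14.5, 124 and 86.8 at day 0 and 8.89, 5.37 and 9.32 at day 30 (-2.68 ± 0.59, adjusted p = 0.014), and lost the call in 3 of the 6 fits that leave out a library (adjusted p up to 0.081). Klrb1c, the NK receptor NK1.1, had 4.62, 16.1 and 14.3 against 1.72 to 1.84 (-2.03 ± 0.38). The T cell receptor subunit gene Cd3g had no read at day 30 or in the first day 0 library. Without the first day 0 library 9 of the T and NK cell markers fell, and without any other compared library 1 or 2. Il7r, the interleukin 7 receptor gene, had 0.924, 2.41 and 5.07 at day 0 and 10.7, 9.19 and 12 at day 30 (1.76 ± 0.36, adjusted p up to 0.0525 without 1 library). Of 13 endothelial markers Aqp1 passed (7.69% lower against 2.73%), with 6.73, 34.5 and 21.7 at day 0 and 1.41 to 3.80 at day 30 (-2.29 ± 0.54). Aqp1 passed in only 1 of the 6 fits that leave out a library (adjusted p up to 0.114). The endothelial sum was 59.4, 313 and 241 at day 0 and 74.5 to 80.3 at day 30, so the groups overlapped through the first day 0 library. Without that library 9 of the endothelial markers fell.

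Fibroblast markers went in both directions. Of 17 tested, 3 rose (17.6% against 3.45%) and 1 fell (5.88% against 2.73%), and the list summed to 206, 350 and 352 at day 0 and 324 to 333 at day 30, against 767 to 2669 at day 7. Lox, which encodes a collagen cross-linker, was at 0 throughout day 0 and reached 3.12, 2.97 and 2.41 at day 30. Col3a1, a fibrillar collagen gene, had 5.28, 15.7 and 15.9 at day 0 and 46.0, 41.1 and 43.9 at day 30 (1.88 ± 0.40), and Postn, the periostin gene of activated fibroblasts, rose by 1.54 ± 0.30. Serpinf1, which encodes a secreted serpin, fell by 1.08. Col3a1 passed in 5 and Serpinf1 in only 1 of the 6 fits that leave out a library (adjusted p up to 0.0505 and 0.0974). Sfrp2, a secreted modulator of Wnt signals outside the list, had 0, 0.419 and 0.543 at day 0, 17.5 to 54.5 at day 7 and 11.7, 9.04 and 11.5 at day 30 (3.17 ± 0.33, adjusted p = 6.82e-05).

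Among 14 dendritic cell markers 4 rose (28.6% against 3.45%; 1 without the second day 0 or the third day 30 library) and none fell, and the list summed to 75.8 to 117 at day 0 and 174 to 177 at day 30. They were the chemokine gene Ccl22 (1.88 ± 0.33), the lymph node homing receptor gene Ccr7 (1.63 ± 0.33), the peptidase gene Dpp4 (1.53 ± 0.39) and the integrin gene Itgax (0.79 ± 0.18). Ccl22 had 1.85, 6.50 and 6.16 at day 0 and 19.5, 20.8 and 16.2 at day 30, and it alone of the 4 passed without any 1 library. In contrast, Cd207, the langerin gene of some dendritic cells and macrophages (chromosome 6, 83671215 to 83677857), had 14, 12.9 and 27.7 at day 0, 0.876 to 1.27 at day 7 and 0.468, 1.27 and 0.697 at day 30 (-3.35 ± 0.30, adjusted p = 1.69e-05). None of 7 neutrophil and 5 erythroid markers passed, and up to 3 of each list fell with 1 compared library left out. The erythroid markers summed to 23.4, 127 and 146 at day 0 and 21.5 to 26.7 at day 30. The part of the muscle, mast cell, lymphocyte and stromal transcripts in the other differences was not tested.

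The largest log2 fold change of the comparison was in a predicted gene, Gm10800. It and the further predicted genes below were chosen after their values were seen. Gm10800 had 0.132, 0.734 and 0 at day 0 and 147, 126 and 132 at day 30, a log2 fold change of 6.76 ± 0.26 (adjusted p = 7.44e-10). Gm26870 had 0.264, 0.210 and 0.543 at day 0 and 54.8, 52.0 and 52.7 at day 30 (5.35 ± 0.26). Gm21738 had a single read at day 0 and a signal of 22, 18.2 and 23.6 at day 30. At day 7 and day 3 none of these genes reached a signal of 1, so they set the day 30 libraries apart from all 9 others. Whether the reads came from transcripts of these genes was not tested.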

How the data were processed

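RNA from sorted heart cells was sequenced in 12 libraries, 3 per group. Per the submitters' processing notes, cutadapt 1.3, RSEM 1.2.20, edgeR 3.14.0 and the build GRCm38 were used; their roles are not given in the sources used here. The deposited table gives a linear normalised signal per gene and its log2 value, set to 0 for signals below 1. Signals were whole multiples of 1 read (100% of values within 0.02), so read counts could be recovered from the deposited signal. Log2(signal + 1) was fitted with limma 3.58.1 (R 4.3.3, trend in the variance prior, 4 group means over all 12 libraries, no pairing), two-sided, with Benjamini-Hochberg adjustment over 12879 genes and a threshold of 0.05. Fold changes are on this log2(signal + 1) scale, understate low genes, and are given with the SE of that fit; levels are signal. The fit was also run on simulated data, with the outcome not reported here. Symbols were restored from dates for 15 genes, and 98.5% of identifiers were found in GENCODE M21, the source of coordinates. The members and the 46 gene lists were chosen with earlier results of these data known. Named genes were the 12 largest rises and falls among genes that passed with groups apart, a mean signal of at least 10 and no clone name, up to 4 passing members per list, and the gate genes. The other genes named, among them all passing members of 5 lists, Adam8, Cmklr1, resident macrophage genes and predicted genes, were chosen after their values were seen. Alternatives were other pseudocounts, filters, scalings, edgeR 4.0.16 and DESeq2 1.42.0 on recovered reads, and leaving out libraries.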

Additional observations from a re-analysis of the deposited data

How the results depend on the processing

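No call changed sign under any of the 24 alternatives run. The count of 796 genes (444 higher, 352 lower) stayed within 1.5 times under other pseudocounts, filters, scalings, a robust prior, the deposited log2 values, removal of length and GC trends, and the edgeR test on recovered reads (758). It moved to 3743 (1950 and 1793) with array weights, to 2674 (1413 and 1261) with the 6 compared libraries alone, to 1328 (666 and 662) with DESeq2, to 1990 (1082 and 908) without the second day 7 library, and to 13 (12 and 1) with the day 30 libraries averaged as 1 sample. Leaving out the day 0 library that stood apart together with the second of day 7, chosen after the data were seen, gave 2513 (1397 and 1116). Without 1 of the 6 compared libraries, 235 to 955 genes passed, 152 to 510 higher and 83 to 445 lower, the most without the first day 0 library and the fewest without the second of day 30; 71 of the 157 named genes that passed did so in all 6 fits. Apart from the averaging and the fits with fewer samples, the cause was not tested. Libraries with the same replicate number did not deviate together (r = 0.00106, -0.00964 and -0.0235), and a replicate block gave 835 genes. A gene below 3 reads in a library, a signal of up to 0.543, cannot be told from 0.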

Other observations

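Tsc22d3 and Fkbp5, known target genes of glucocorticoid hormones, were lower at day 30. They were chosen after their values were seen and no list of such targets was counted, so they do not show how these targets changed as a group. Tsc22d3, the gene of the glucocorticoid-induced leucine zipper, had 318, 190 and 214 signal at day 0, 56.0 to 67.1 at day 7 and 107, 110 and 109 at day 30, a log2 fold change of -1.10 ± 0.18 (adjusted p = 0.00247). Fkbp5, a co-chaperone of the glucocorticoid receptor, had 40.9, 23.9 and 27.2 at day 0 and 9.75, 12.3 and 12.2 at day 30 (-1.32 ± 0.28, adjusted p = 0.0112, and 0.062 without the first day 30 library). Of 35 myeloid transcription factor genes 2 rose (5.71% against 3.45% of all genes) and none fell: Bhlhe40, a repressor of interleukin 10 in T cells, had 12.7, 11.9 and 14.7 at day 0 and 59.0, 54.8 and 55.9 at day 30 (2.03 ± 0.17, adjusted p = 8.24e-06), and Id2, an inhibitor of basic helix-loop-helix factors, had 33.1 to 36.7 and 82.3 to 102 (1.34 ± 0.25). Both passed without any 1 library.

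Of 41 splicing factor genes 5 rose (12.2% against 3.45% of all genes) and U2af1 fell (2.44% against 2.73%), with a median of 0.32. The splicing kinase gene Clk1 had 333, 268 and 290 at day 0 and 574, 555 and 585 at day 30 (0.95 ± 0.25), Hnrnph1 had 258 to 284 and 498 to 509 (0.91 ± 0.19), and Srsf5 had 288 to 327 and 506 to 549 (0.77 ± 0.15). Without the first day 0 library 8 of the splicing factors rose, and without any other compared library 1 or 2 did. Of these genes only Srsf5 passed without any 1 library. At day 7 Clk1 had 83.3 to 206 and Hnrnph1 89.6 to 170. Among 30 receptors for chemokines and lipid mediators 4 rose (13.3% against 3.45%) and 1 fell (3.33% against 2.73%), among the former the prostaglandin E2 receptor gene Ptger4, with 43.6, 24.9 and 24.3 at day 0 and 91.0, 90.7 and 86.0 at day 30 (1.55 ± 0.19, adjusted p = 0.00029), and the chemerin-binding receptor gene Ccrl2 (1.82 ± 0.30). The others were Ccr7 and Cxcr3, which passed in 4 and in 1 of the 6 fits that leave out a compared library, and the chemerin receptor gene Cmklr1 was the 1 that fell. Of 28 pattern recognition receptors 4 rose (14.3% against 3.45%) and none fell: Clec4e, Tlr1 (0.58), Clec4d (1.55 ± 0.17) and Tlr2 (0.89 ± 0.17), of which Tlr1 passed in no fit that leaves out a compared library. Of 24 genes of cholesterol synthesis 3 rose (12.5% against 3.45%), Insig1 by 0.80, Cyp51 by 0.71 and Sc4mol by 0.58, each in only 1 of the 6 fits that leave out a library.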
